A study of Mus musculus with 5 samples.

Results

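PPAR, RXR and C/EBP transcription factors and the coactivator PGC-1 alpha form the regulatory core of the fat cell program, and their 10 genes were followed here in B16F10 cells, a pigmented mouse melanoma line. The genes were taken by symbol from the deposited expression table: Pparg, Ppara, Ppard, Rxra, Rxrb, Rxrg, Cebpa, Cebpb, Cebpd and Ppargc1a. All 10 were found among its 54699 genes. Every culture received a lentivirus and was grown in DMEM with serum, and the groups differed in what the virus carried. Cells that expressed mouse Myod1, a master transcription factor of skeletal muscle, cells that expressed mouse Pparg, and cells with the empty expression vector (the expression control) were collected on day 8. Cells with a short hairpin RNA against Setdb1, a methyltransferase that places a silencing mark on histone H3, and cells with the empty knockdown vector (the knockdown control) were collected on day 7. The labels name no promoter for either insert and do not say whether single clones were picked. There was 1 RNA-seq library per group, so no difference below has a replicate check and no test between conditions was possible. The Myod1 and Pparg comparisons share their control library.

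PPARs are nuclear receptors that bind fatty acids and their derivatives. Each pairs with an RXR, and the pair sits on DNA at repeats of a short core site, where ligand exchanges corepressors for coactivators such as PGC-1 alpha. In preadipocytes, C/EBP beta and C/EBP delta appear first, then PPAR gamma and C/EBP alpha, which maintain each other and switch on genes of lipid uptake and storage. PPAR alpha is best known for fatty acid oxidation in liver, heart and muscle, and PPAR delta is expressed widely. In melanocytes, PGC-1 alpha is known as an activator of Mitf, the lineage's leading transcription factor.

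Levels are given as FPKM, fragments per kilobase of gene length scaled to library size, which allows levels of different genes to be compared. The interval after a level is a 95% Wilson interval on the reads recovered from the FPKM, and it covers counting error only. The libraries held 16214802 to 18300670 reads assigned to genes. Differences are log2 ratios of FPKM + 1, which understate the change of low genes. A gene was compared where its FPKM reached 1 in at least 1 library, which 12842 genes did, and it was called higher or lower at a 2-fold difference, that is 1 on this log2 scale. Of the 10 genes 9 were compared, and Cebpa was not. Pparg, Ppara and Rxrg passed only through the library where each was highest, so for them a call there follows largely from passing.

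The targeted genes matched the labels. Myod1 was at 260.1 FPKM in the Myod1 expression library and at 0 reads in the other 4, and Setdb1 was at 0.867 FPKM with the hairpin against 9.82 in its control. All 7 melanocyte markers were at 1 FPKM or more in every library, with a summed level of 7583 and 8222 in the controls, 8985 with Setdb1 knockdown, 3110 with Myod1 expression and 2195 with Pparg expression. The 4 skeletal muscle markers summed to 18879 FPKM with Myod1 expression and to 1.02 or less elsewhere. Of 6 fat cell markers, only Plin1 reached 1 FPKM and only with Pparg expression (1.25), where Adipoq stood on 2 reads and Lep on 0. Of the 4 macrophage markers Cd68 alone reached 1 FPKM, and of the 4 fibroblast markers Col1a1 alone did, in the Pparg expression library. None of the 3 endothelial markers did. In these bulk libraries, fewer cells with a transcript and less of it per cell cannot be told apart.

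Pparg, the receptor that is both necessary and sufficient for fat cell formation, was seen only where it was supplied. It was at 44.4 FPKM (42.7 to 46.2, from 2514 reads) in the Pparg expression library and at 0 reads in the other 4, where 3 reads would have been 0.0549 to 0.0646 FPKM. The level was at least 714-fold above that 3-read floor in the expression control. Reads from the vector's insert and from the cells' own gene, which spans chr6:115360951-115490399 on the plus strand in GRCm38 with 7 annotated transcripts, cannot be told apart in a table of gene totals. In the 4 other libraries no read came from either, including the Setdb1 knockdown library in which Cebpb was at its highest. Pparg has 3 upstream windows in the RefSeq table (GRCm38.p6, 250 bases each). The most downstream is shown because it alone holds the C/EBP motif searched, TTGCNNAA on either strand, marked in capitals. It lies at chr6:115421816-115422065 on the plus strand, inside the gene and outside annotated exons, and its matches begin 215 and 16 bases before the RefSeq start. This motif is in 9.56% of the 32851 windows of the same length.

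Pparg upstream window 3: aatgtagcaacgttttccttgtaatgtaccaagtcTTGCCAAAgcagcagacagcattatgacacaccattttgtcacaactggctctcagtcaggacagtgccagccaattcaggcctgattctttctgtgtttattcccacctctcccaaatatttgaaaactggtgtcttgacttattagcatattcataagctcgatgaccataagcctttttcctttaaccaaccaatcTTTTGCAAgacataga

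Ppara, the oxidative member of the family, was low everywhere and highest with Myod1 expression. Its level was 1.23 FPKM (0.977 to 1.54, 74 reads) with Myod1 expression, 0.381 (0.263 to 0.550, 28 reads) with Pparg expression, 0.0957 in the expression control, 0.0845 with Setdb1 knockdown and 0.0780 in the knockdown control. The last 3 values rest on 5 or 6 reads each and their intervals overlap, while the intervals of the first and second do not overlap with each other or with these. The ratio to the expression control was 12.8 (exact binomial 95% interval 5.62 to 36.0) with Myod1 expression, a log2 ratio of 1.02, and 3.98 (1.62 to 11.7) with Pparg expression, a log2 ratio of 0.33 that passed the limit with 0.1 FPKM added in place of 1 (1.30) or with a floor of 3 reads (1.99). The call at 1.02 was lost when libraries were divided by their FPKM sum (0.84) or scaled to their 75th percentile (0.94).

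Ppard, the widely expressed member, carried nearly all PPAR transcript outside the Pparg expression library. It was at 18.4 FPKM with Setdb1 knockdown (17.7 to 19.1) and 18.2 in the expression control (17.4 to 18.9), at 12.5 in the knockdown control (11.9 to 13.1) and 12.0 with Pparg expression (11.4 to 12.6), and at 10.2 with Myod1 expression (9.64 to 10.8). Neighbours within each of the first pairs overlap, and the steps between 18.2 and 12.5 and between 12.0 and 10.2 do not. The controls differed by a log2 ratio of -0.51, beside 0.52 with Setdb1 knockdown, -0.56 with Pparg expression and -0.78 with Myod1 expression. Against the other control these ratios became 0.02, -0.05 and -0.27. No Ppard difference was called, although division of each library by its FPKM sum put Myod1 expression at -1.13.

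**Figure D1:**
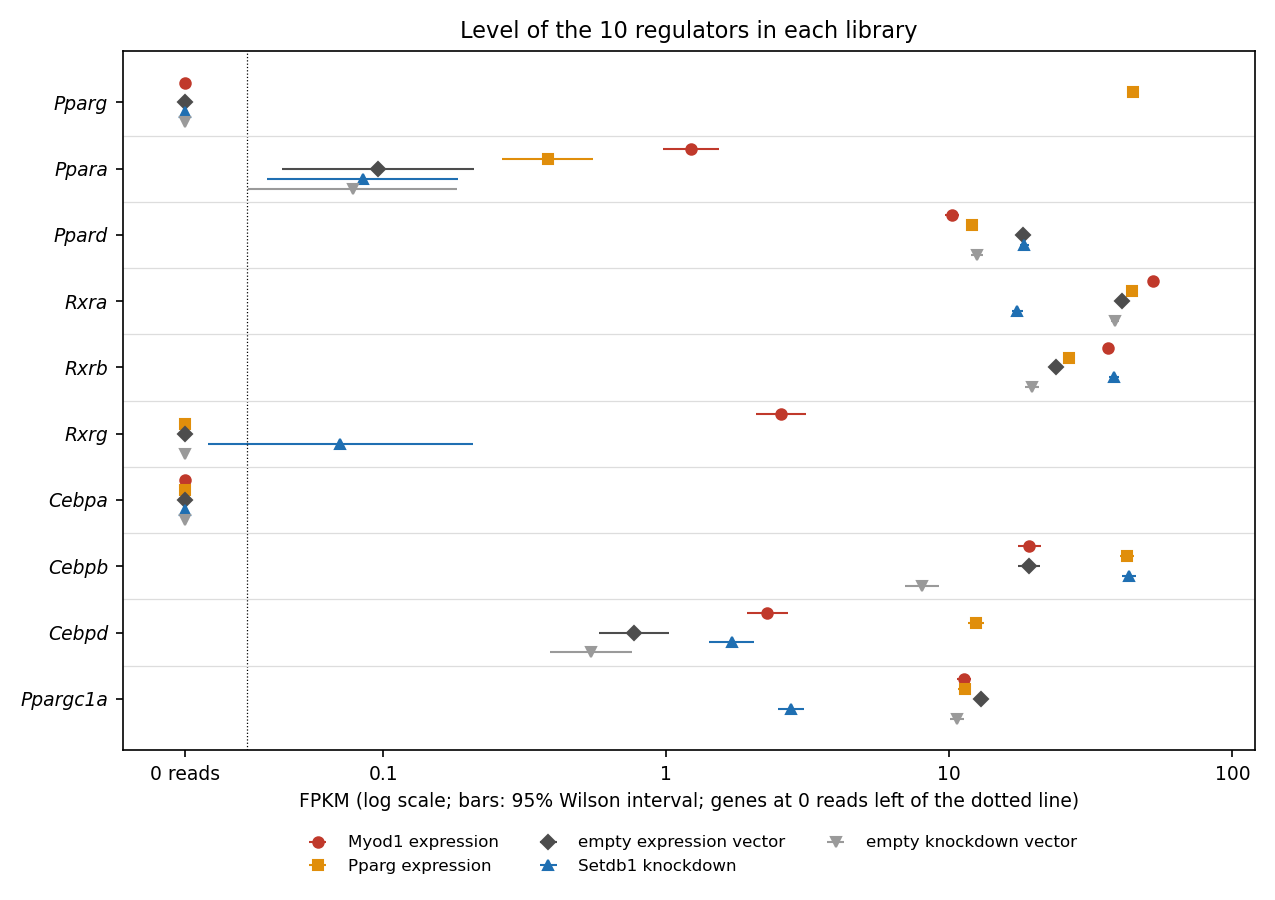
Level of each of the 10 regulators in each of the 5 libraries, in FPKM on a log scale. Points are single libraries, bars are 95% Wilson intervals, and genes at 0 reads stand left of the dotted line. Pparg and Cebpa are at 0 reads in 4 and 5 libraries, and Ppargc1a and Rxra are lowest in the Setdb1 knockdown library.

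Among the PPARs, Ppard accounted for 99.5% of the summed FPKM in the expression control, 99.4% in the knockdown control and 99.5% with Setdb1 knockdown. With Myod1 expression it accounted for 89.3% and Ppara for 10.7%. With Pparg expression, Pparg made up 78.2% and Ppard 21.1%, and Pparg stood 3.70 times (3.48 to 3.94) above Ppard per length. The FPKM of Pparg rests on its gene length of 2953 bases, while the length of the vector's insert was not known here. A different insert length would change these values.

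The obligate partners of the PPARs, the RXRs, had the larger summed FPKM in every library. Their summed level was 8.01 times that of the PPARs with Myod1 expression, 3.53 and 4.62 times in the empty expression and knockdown controls, 3.01 times with Setdb1 knockdown and 1.24 times with Pparg expression. With Pparg expression the PPAR sum was 56.8 FPKM and the RXR sum 70.6 FPKM. Both this comparison and the ratio of 1.24 depend on the length used for Pparg.

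Rxra, the main RXR of most tissues, was lowest with Setdb1 knockdown. It was at 52.5 FPKM in the Myod1 expression library (51.0 to 54.1), 44.2 in the Pparg expression library (43.0 to 45.5), 40.6 (39.3 to 41.9) in the expression control, 38.4 (37.1 to 39.7) in the knockdown control and 17.4 (16.6 to 18.2) with Setdb1 knockdown. Only the controls' intervals overlap in this order. The Setdb1 knockdown level was 45.3% of its control, or 2.21-fold lower (2.08 to 2.34), with a log2 ratio of -1.10 that passed the 2-fold limit. It was -1.18 against the other control. The excess with Myod1 expression, a log2 ratio of 0.36, turned to -0.02 when libraries were divided by their FPKM sum.

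Rxrb went the other way with Setdb1 knockdown. It was at 38.2 FPKM (36.7 to 39.7) there and 36.5 (35.0 to 38.1) with Myod1 expression, which overlap, then at 26.4 (25.2 to 27.6) with Pparg expression, 23.9 (22.7 to 25.2) in the expression control and 19.6 (18.6 to 20.8) in the knockdown control. The Setdb1 knockdown level was 1.94-fold (1.82 to 2.08) its control's, a log2 ratio of 0.92 that stayed under the limit. Genes with a high GC content were shifted as a group in this comparison. The 634 compared genes in the GC bin of Rxrb, whose transcript is 61.4% G and C, had a median log2 ratio of 0.49, and 0.44 remained for Rxrb after its subtraction. For Rxra, in a bin with a median of 0.35, the same step gave -1.44.

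The order of the main RXRs was thereby inverted with Setdb1 knockdown. Rxra stood above Rxrb 1.44 times (1.37 to 1.52) with Myod1 expression, 1.67 times (1.59 to 1.77) with Pparg expression, 1.70 times (1.60 to 1.81) in the expression control and 1.95 times (1.83 to 2.09) in the knockdown control. With Setdb1 knockdown the ratio was 0.456 (0.429 to 0.485). Rxra supplied 31.3% of the RXR sum there and 57.4% to 66.2% in the other 4 libraries, while the RXR sum itself was 55.6 FPKM against 58.0 in its control.

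**Figure D2:**
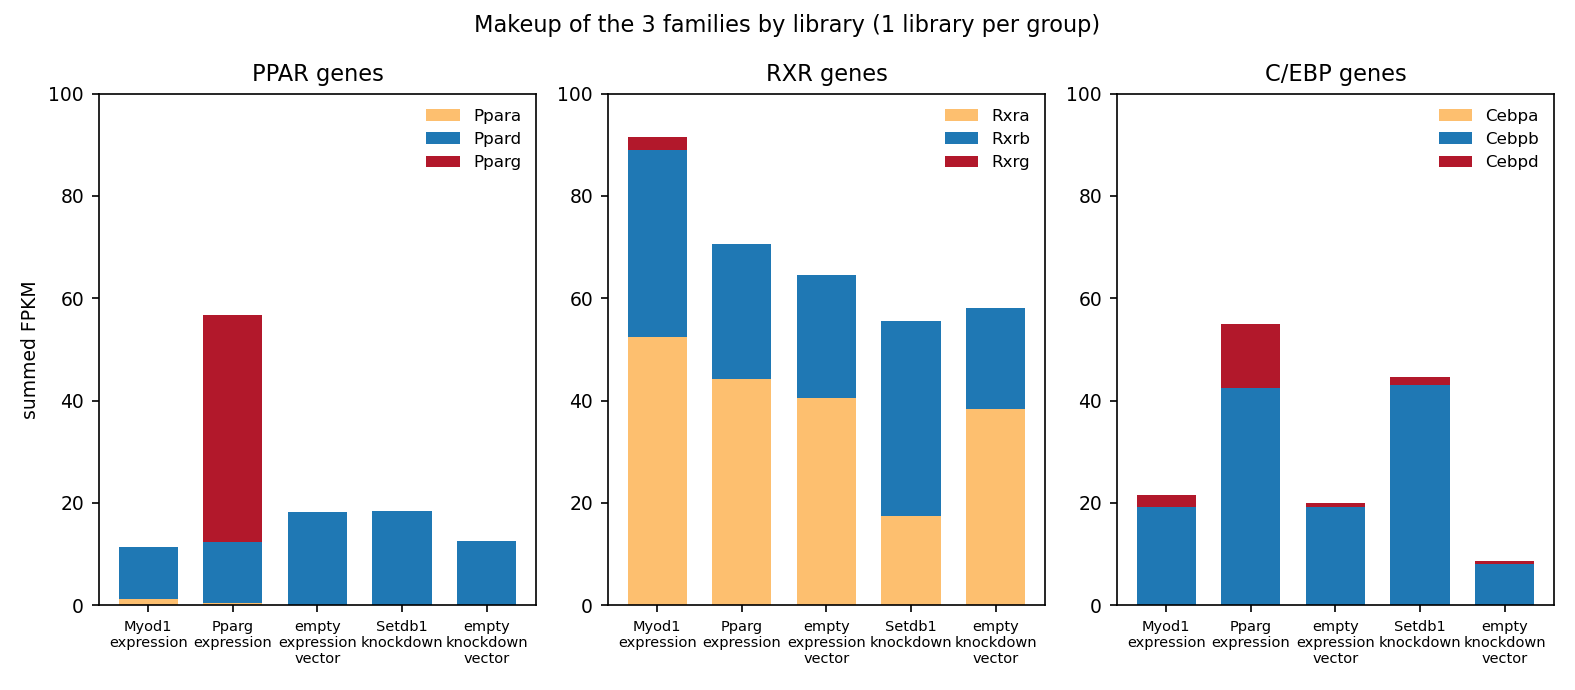
Summed FPKM of the PPAR, RXR and C/EBP genes in each library, stacked by gene and with a bar per single library. Pparg dominates the PPAR bar of its own library, Rxrb exceeds Rxra in the Setdb1 knockdown library, and the C/EBP bars are tallest with Pparg expression (54.9) and Setdb1 knockdown (44.7).

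Rxrg, an RXR found mostly in muscle and nervous tissue, rose above a few reads only with Myod1 expression. It was at 2.55 FPKM (2.08 to 3.12, 92 reads) there, on 3 reads with Setdb1 knockdown and on 0 reads in the remaining 3 libraries. The level was at least 31.9-fold above the 3-read floor of the expression control, and the log2 ratio was 1.83. Its downstream RefSeq window is shown for an overlap of motifs. It holds the E-box CAGCTG, a form bound by myogenic factors, begun 84 bases before the start, overlapping a nuclear receptor core site AGGTCA begun 88 bases before it. The capitals mark the joined run. The window lies at chr1:167618015-167618264 on the plus strand (GRCm38.p6), inside the gene and outside annotated exons. On either strand, the E-box was in 13.0% and the core site in 14.0% of all windows of this length. The window of Ppard also holds the E-box, at 226 and 175 bases before the start, and that of Ppara does not hold it. Binding of Myod1 to any of these sites was not tested. The core site was also in windows of Pparg and Rxra.

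Rxrg upstream window 2: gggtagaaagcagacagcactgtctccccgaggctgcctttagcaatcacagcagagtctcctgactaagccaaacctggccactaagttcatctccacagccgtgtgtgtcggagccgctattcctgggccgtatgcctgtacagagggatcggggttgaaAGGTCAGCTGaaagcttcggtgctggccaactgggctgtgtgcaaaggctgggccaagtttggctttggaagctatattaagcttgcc

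The full PPAR-RXR element, a pair of core sites AGGTCA in direct repeat with 1 free base between them, was in none of the 14 windows that RefSeq gives for 9 of the 10 genes, and in 11 (0.0335%) of all windows.

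Cebpa, which sustains the late fat cell program together with Pparg, was listed at 0 reads in all 5 libraries, the Pparg expression library included. Its 3-read floor was 0.0594 to 0.0724 FPKM, so a level under that was not detectable at this depth. The gene (chr7:35119293-35121928, plus strand) has 51 exonic bases in common with Gm45091 on the other strand, which was at 0.104 FPKM with Pparg expression and at 0 elsewhere.

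Cebpb, an early C/EBP that is also induced by stress and inflammatory signals, took its highest level in 2 libraries. It was at 43.0 FPKM (40.6 to 45.5, 1197 reads) with Setdb1 knockdown and 42.5 (40.1 to 44.9, 1224 reads) with Pparg expression, which overlap. It was at 19.2 with Myod1 expression (17.5 to 21.05) and 19.2 in the expression control (17.5 to 20.98), which overlap, and at 8.03 (7.00 to 9.22, 202 reads) in the knockdown control. The controls therefore differed 2.39-fold (2.02 to 2.83), a log2 ratio of -1.16 that was itself called. Against its own control Setdb1 knockdown was 5.35-fold higher (4.61 to 6.25), with a log2 ratio of 2.28. Against the expression control it was 2.24-fold higher (2.01 to 2.50), with a log2 ratio of 1.13. Pparg expression was 2.21-fold higher (1.99 to 2.47), with a log2 ratio of 1.11, against its own control and 5.29-fold higher against the other. Myod1 expression gave a log2 ratio of 0.00 against its own control and of 1.16 against the other. Which control stands for the unperturbed level of Cebpb cannot be told apart with 1 library each. The controls also differ in both vector and day of collection, so every ratio to the other control crosses vector and day.

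The transcript of Cebpb, 67.2% G and C, lies in the same GC bin as that of Rxrb. Subtraction of the bin's median left 1.80 with Setdb1 knockdown, -1.04 between the controls, -0.39 with Myod1 expression and 0.95 with Pparg expression, where the call was lost. Cebpb is a single exon at chr2:167688915-167690418 on the plus strand, and 312 of its bases (20.7%) are also exonic in Tmem189 on the opposite strand. Tmem189 was at 115 FPKM with Myod1 expression, 32.6 with Pparg expression, 45.6 in the expression control, 39.4 with Setdb1 knockdown and 56.3 in the knockdown control. The library kit named in the labels does not mark strand, and the share of reads that passed between these genes was not tested. The 250 bases upstream of Cebpb, chr2:167688665-167688914 on the plus strand (GRCm38.p6), are shown because they hold TGACG, the core of the cyclic AMP element, 3 times on either strand, begun 180, 53 and 7 bases before the start (capitals). Of all windows 17.8% hold this motif, and this window is 81.6% G and C.

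Cebpb upstream window: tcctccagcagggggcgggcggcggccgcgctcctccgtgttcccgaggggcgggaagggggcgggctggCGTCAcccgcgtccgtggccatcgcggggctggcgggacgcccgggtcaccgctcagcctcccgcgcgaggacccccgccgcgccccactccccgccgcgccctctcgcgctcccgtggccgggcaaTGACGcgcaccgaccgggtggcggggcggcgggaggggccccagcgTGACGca

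Cebpd, the partner of Cebpb in early fat cell formation, was highest with Pparg expression. It was at 12.4 FPKM (11.6 to 13.3, 893 reads) there, 2.27 (1.92 to 2.69) with Myod1 expression, 1.70 (1.42 to 2.04) with Setdb1 knockdown, 0.768 (0.578 to 1.02) in the expression control and 0.543 (0.388 to 0.758) in the knockdown control. The middle pair overlaps, as do the controls. All 3 treatments were above both controls. The ratio to the respective control was 16.2 (12.1 to 22.2) with Pparg expression, 3.14 (2.13 to 4.74) with Setdb1 knockdown and 2.96 (2.11 to 4.22) with Myod1 expression. On the scale with 1 FPKM added these were log2 ratios of 2.93, 0.81 and 0.89, of which only the first was called. With 0.1 FPKM added in place of 1 all 3 passed the limit, with 1.49 for Setdb1 knockdown and 1.45 for Myod1 expression, and so they did with a floor of 3 reads (1.65 and 1.57). Myod1 expression reached 1.09 against the other control. Of the exonic bases of Cebpd (chr16:15887286-15891031, plus strand), 562 (15.0%) are shared with Spidr on the opposite strand. Spidr was at 2.82 FPKM with Pparg expression, 4.32 in the expression control, 2.80 in the knockdown control, 1.72 with Setdb1 knockdown and 1.08 with Myod1 expression. The share of reads that passed between these genes was not tested.

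The C/EBP sum was 54.9 FPKM with Pparg expression, 44.7 with Setdb1 knockdown, 21.5 with Myod1 expression, and 19.9 and 8.57 in the empty expression and knockdown controls. Its makeup differed between the 2 high libraries. Cebpb stood above Cebpd 3.41 times (3.13 to 3.73) per length with Pparg expression and 25.3 times (20.9 to 30.8) with Setdb1 knockdown. That ratio was 25.0 (18.5 to 34.4) in the expression control, 14.8 (10.3 to 22.0) in the knockdown control and 8.44 (6.94 to 10.3) with Myod1 expression.

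Ppargc1a, the gene of PGC-1 alpha, was low only with Setdb1 knockdown. It was at 13.0 FPKM (12.3 to 13.7) in the expression control, 11.3 with Pparg expression (10.8 to 12.0), 11.3 with Myod1 expression (10.7 to 12.0) and 10.6 (10.0 to 11.2) in the knockdown control, and the last 3 overlap. With Setdb1 knockdown it was at 2.76 (2.48 to 3.07, 337 reads). This was 26.0% of its control, 3.85-fold lower (3.40 to 4.35), with a log2 ratio of -1.63, and 4.70-fold lower than the other control. The transcript, 41.7% G and C, lies in a bin whose median was -0.51 in this comparison, and -1.12 remained after subtraction. With Myod1 expression the log2 ratio was -0.19 and turned to 0.12 with that subtraction.

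The gene lies on the minus strand at chr5:51454250-51567726, and the upstream RefSeq window, chr5:51567726-51567975 (GRCm38.p6), is given on that strand. It is shown for motifs of Mitf and of the cyclic AMP pathway, which drives pigmentation, marked in capitals. The E-box CATGTG, the form bound by Mitf, begins 160 bases before the start and lies on the other strand. The core of the cyclic AMP element begins 49 bases before the start, also on the other strand. The E-box was in 12.3% of all windows. The cyclic AMP core was also in windows of Ppara, Rxrb and Cebpb.

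Ppargc1a upstream window: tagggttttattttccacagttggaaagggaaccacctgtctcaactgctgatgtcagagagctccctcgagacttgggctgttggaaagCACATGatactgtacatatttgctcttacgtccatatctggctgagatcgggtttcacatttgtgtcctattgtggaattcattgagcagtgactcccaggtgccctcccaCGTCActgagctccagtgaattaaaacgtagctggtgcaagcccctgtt

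Taken by comparison, 2 of the 9 genes compared were called with Myod1 expression, Ppara and Rxrg, both higher, where 21.6% of all compared genes were called, 14.0% higher and 7.55% lower. That share is close to the background and is no result about these genes. With Pparg expression 3 were called, all higher: Pparg itself, Cebpb and Cebpd, where 6.52% of all genes were called, 4.22% higher and 2.30% lower. With Setdb1 knockdown Cebpb was called higher and Rxra and Ppargc1a lower, where 19.7% were called, 9.34% higher and 10.3% lower. Between the controls Cebpb alone was called, lower in the knockdown control, where 2.67% were called, 1.23% higher and 1.44% lower. Against the other control 4 genes were called with Myod1 expression, Ppara, Rxrg, Cebpb and Cebpd, all higher, where 22.6% of all genes were called, 15.1% higher and 7.51% lower. The same exchange left Pparg, Cebpb and Cebpd called higher with Pparg expression, at a background of 7.93%, 5.52% higher and 2.41% lower. It left Cebpb called higher and Rxra and Ppargc1a lower with Setdb1 knockdown, at a background of 19.7%, 8.72% higher and 11.0% lower.

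**Figure D3:**
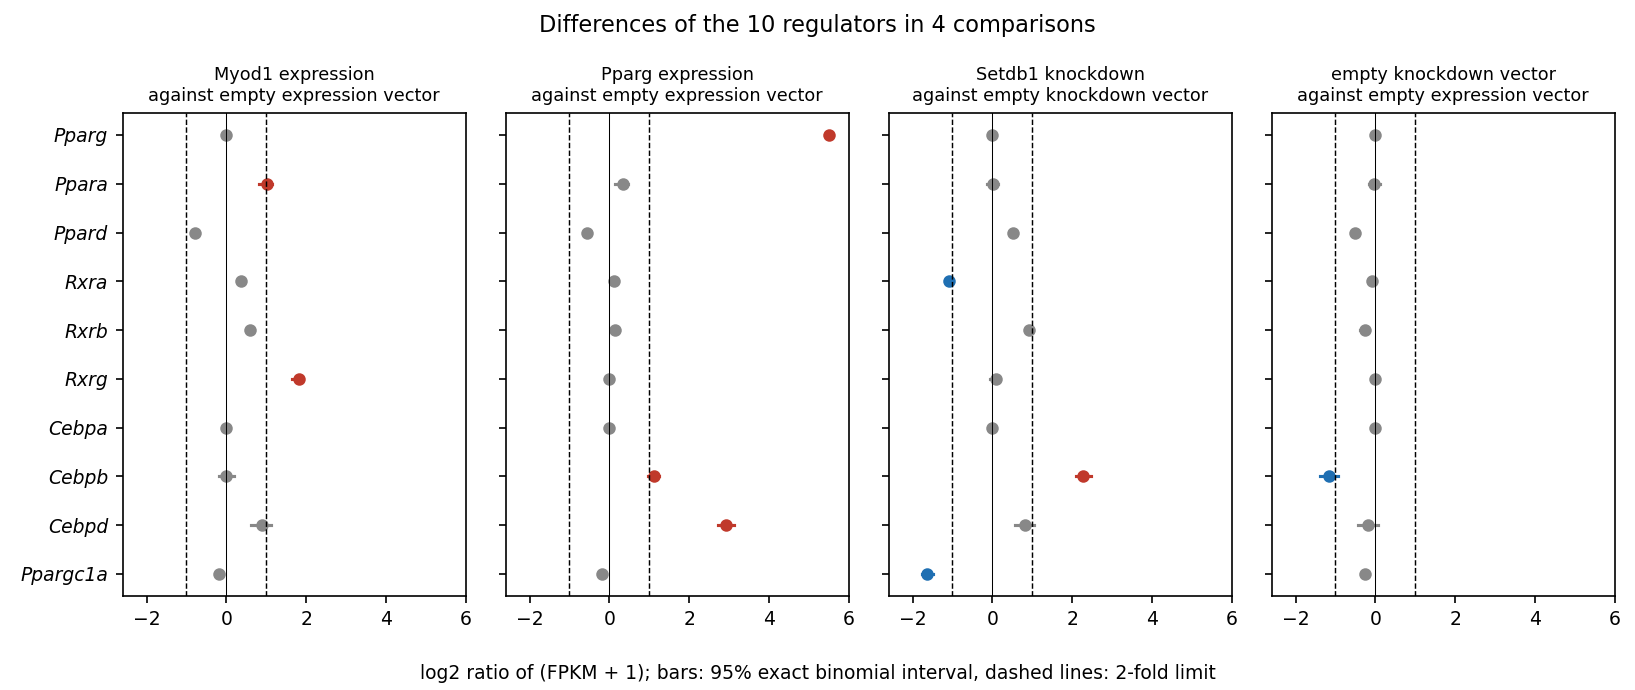
Log2 ratio of FPKM + 1 of the 10 regulators in 3 treatment comparisons and between the controls. Points are ratios of single libraries, bars are exact binomial 95% intervals, dashed lines mark the 2-fold limit, red and blue mark genes called higher and lower, and Cebpb lies beyond the limit in the panel of the controls too.

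Targets of the PPARs were counted on a list of 40 genes of fatty acid uptake, storage and oxidation, of which 30 were compared and 5 were at 0 reads in all libraries (Lpl, Cidea, Pck1, Pdk4 and Ucp1). With Pparg expression 15 were called higher and none lower, where 4.22% of all compared genes were called higher and 2.30% lower. Of these 15, 7 reached the 1 FPKM needed for the comparison only in the Pparg expression library, so that they could only be called higher, among them Fabp4, Cd36 and Angptl4. The median log2 ratio over all 40 was 0.51, beside -0.02 over all compared genes. The knockdown control as base gave 19 called higher and none lower, at a background of 5.52% higher. Fabp4, a fatty acid carrier of fat cells and macrophages, was at 153 FPKM with Pparg expression and at 0 reads in the other 4 libraries. Cd36, a fatty acid transporter, was at 146 FPKM there and on 0 to 4 reads elsewhere. The 4 macrophage markers summed to 1.88 FPKM there, 12.2 in its control, 3.996 in the knockdown control, 18.9 with Setdb1 knockdown and 4.41 with Myod1 expression. Nearly all of each sum was Cd68, which was called lower with Pparg expression (-2.20) but not against the other control (-0.80), was called lower in the knockdown control than in the expression control (-1.40), and was called higher with Setdb1 knockdown (1.98) but not against the other control (0.58). Their part in the Fabp4 and Cd36 levels was not tested. Angptl4, a secreted inhibitor of lipoprotein lipase, was at 18.2 FPKM there and on 2 or 3 reads elsewhere, and Fabp3, a heart and muscle carrier, was at 37.6 against 1.04 in the control.

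With Myod1 expression, in which Ppara was the PPAR that was higher, 10 of the 30 targets were called higher and 3 lower, where 14.0% of all genes were higher and 7.55% lower. Of these 10, Ucp2 reached 1 FPKM only in the Myod1 expression library, so that it could only be called higher. The median over all 40 was 0.05. Fabp3 was at 536 FPKM, a log2 ratio of 8.04, Fgf21, a secreted metabolic hormone, at 7.69 FPKM against 0 reads, and the oxidation enzyme gene Acadvl and the glycerol phosphate dehydrogenase gene Gpd1 had log2 ratios of 2.11 and 1.93. Fabp4 stayed at 0 reads.

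With Setdb1 knockdown 6 of the 30 targets were called higher and 3 lower, where 9.34% of all genes were higher and 10.3% lower. With the expression control as base 3 were called higher and 4 lower, where 8.72% were higher and 11.0% lower. The median over all 40 was 0.03. Fabp5, a carrier of skin and other tissues, had the lowest log2 ratio at -2.83, with 8.41 FPKM against 65.9. Fabp3 had 1.68, Slc27a1, a fatty acid transporter, 1.62 and Gk, glycerol kinase, -1.62. Slc27a1 was at 18.8 FPKM in the expression control and 5.59 in the other, so its excess was absent against the former, as the level with Setdb1 knockdown was 19.3. Between the controls 2 of the 30, Slc27a1 and Hilpda, were called, both lower in the knockdown control, where 1.44% of all genes were lower and 1.23% higher.

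**Figure D4:**
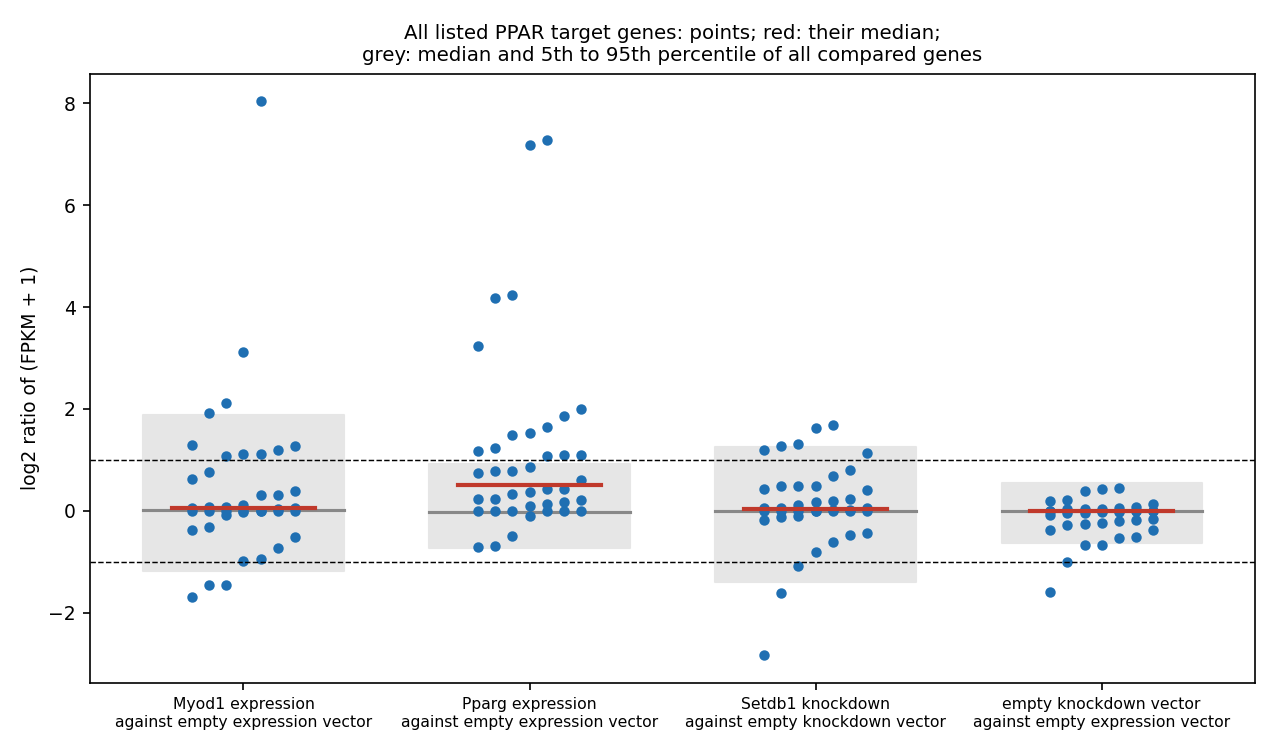
Log2 ratio of FPKM + 1 of all 40 listed PPAR target genes in 3 treatment comparisons and between the controls. Points are genes, red lines are their medians, and grey bands run from the 5th to the 95th percentile of all compared genes, with their median in grey. With Pparg expression the median of the 40 is 0.51, 7 of the 15 genes above the upper limit were compared only through that library, and no gene lies below the lower 2-fold limit.

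Of 15 coactivators of nuclear receptors on the list, all compared, none was called higher in any comparison. With Myod1 expression 1 was called lower (background 7.55%), with Pparg expression 1 (background 2.30%), with Setdb1 knockdown 2 (background 10.3%) and between the controls none (background 1.44%). Prdm16, which works with PGC-1 alpha in brown fat, was at 24.8 FPKM in the expression control and 17.2 in the knockdown control, and at 7.03 with Setdb1 knockdown, 7.98 with Myod1 expression and 9.30 with Pparg expression. Its log2 ratios to the respective controls were -1.18, -1.52 and -1.33, and Pparg expression gave -0.83 against the other control, under the limit. Ppargc1b, the closest relative of Ppargc1a, was called lower with Setdb1 knockdown too, with 0.731 FPKM against 2.67 and a log2 ratio of -1.08, which was -0.75 against the other control. There Ncoa6 was called lower in its place, besides Prdm16, where 11.0% of all genes were lower. With Myod1 expression Ppargc1b was at 4.24 FPKM against 1.92, where Ppargc1a was at 11.3 against 13.0.

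Of 10 corepressors, all compared, 3 were called lower with Setdb1 knockdown and none higher, where 10.3% of all genes were lower. One is the hairpin's target and its call follows from the design. They were Setdb1 itself, a corepressor of PPAR gamma, Ncor1, the backbone of a corepressor complex, and Tbl1x of the same complex. Their log2 ratios were -2.53, -1.24 and -1.07. The last was -0.95, under the limit, against the other control. With Myod1 expression 1 of the 10, Tbl1x, was called lower (-1.13), near the background of 7.55%. Against the other control Tbl1x was again called lower and Chd7 was called higher, where 7.51% of all genes were lower and 15.1% higher. No corepressor was called with Pparg expression, where 4.22% of all genes were higher and 2.30% lower.

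Factors upstream of Pparg were called higher in 3 cases out of 11 compared with Pparg expression (background 4.22%), and in 4 against the other control (background 5.52%). The 3 were Zfp423, a commitment factor of preadipocytes, at 6.56 FPKM against 1.14, Zfp467 at 11.3 against 3.88, and Stat5a at 19.3 against 7.90. With Setdb1 knockdown Klf4 (log2 ratio 1.72) and Zfp467 (1.28) were called higher and Nr3c1, the glucocorticoid receptor, lower (-1.33, and -0.98 against the other control), beside backgrounds of 9.34% and 10.3%. With Myod1 expression 1 of the 11, Klf6, was called lower (-1.16, and -0.73 against the other control), at a background of 7.55%.

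Inhibitors of fat cell formation were called in both directions with Setdb1 knockdown, where 3 of the 7 compared were higher and 2 lower, beside 9.34% and 10.3% of all genes. With the expression control as base 2 were higher and 2 lower, beside 8.72% and 11.0%. Klf2, a repressor of Pparg, had a log2 ratio of 3.79 with 21.7 FPKM against 0.648. Ddit3, which encodes CHOP, had 2.11, and 0.56, not called, against the other control. Hes1, a target of Notch signalling, had 1.30, and Sox9, a transcription factor of cartilage and neural crest, had -1.53. With Myod1 expression Klf2 (1.63) and Hes1 (1.28) were called higher and Ddit3 lower (-1.60), where 14.0% of all genes were higher and 7.55% lower. Ddit3 was at -0.05 against the other control, and Sox9 was called lower in its place (-1.10), where 15.1% were higher and 7.51% lower. None of the 7 was called with Pparg expression against its own control (4.22% and 2.30% of all genes). Ddit3 was called higher (1.10) and Sox9 lower (-1.18) against the other (5.52% and 2.41%).

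Receptors other than the PPARs that pair with RXR were counted on a list of 13. With Setdb1 knockdown 3 of the 8 compared were called higher and none lower, where 9.34% of all genes were higher and 10.3% lower, and the median over all 13 was 0.64. Nr4a2, one of the 3, reached 1 FPKM only in that library. The expression control as base left 2 called higher and 1 lower, where 8.72% of all genes were higher and 11.0% lower, with a median of 0.54 over all 13. The lower one was Thra, a thyroid hormone receptor (-1.10), which was named after its values were seen. Nr4a2, an orphan receptor, was at 3.14 FPKM against 0.589, Vdr, the vitamin D receptor, at 2.12 against 0.349, and Rara, a retinoic acid receptor, at 15.4 against 6.51. Rara had a log2 ratio of 1.13, and 0.53 against the other control. None of the 8 was called with Pparg expression (median over all 13 of 0.06), at a background of 6.52%, though Thra was called higher (1.34) against the other control, at 5.52%. With Myod1 expression Nr4a1 was called higher (1.14) and Nr1h4, the bile acid receptor, lower (-1.03), at backgrounds of 14.0% and 7.55%. Thra (1.47) and Rara were called higher as well against the other control, at 15.1%.

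Of 6 relatives and regulators of the C/EBPs 4 were compared, and between the controls 2 of them were called lower in the knockdown control, as Cebpb was, where 1.44% of all genes were lower. These were Ddit3 and Atf4, stress induced factors of the same protein class. They were at 58.9 and 207 FPKM in the expression control and at 19.4 and 101 in the knockdown control, log2 ratios of -1.55 and -1.03. With Setdb1 knockdown they were at 87.0 and 233 FPKM, log2 ratios of 2.11 and 1.20 against its own control (background 9.34% higher) and of 0.56 and 0.17, neither called, against the other. With Pparg expression Ddit3 was at 42.8 and Atf4 at 114 FPKM. Neither was called against its own control (-0.45 and -0.85), in which comparison Cebpb was higher, and against the other control Ddit3 was called higher (1.10), as Cebpb was, and Atf4 was not (0.18).

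**Figure D5:**
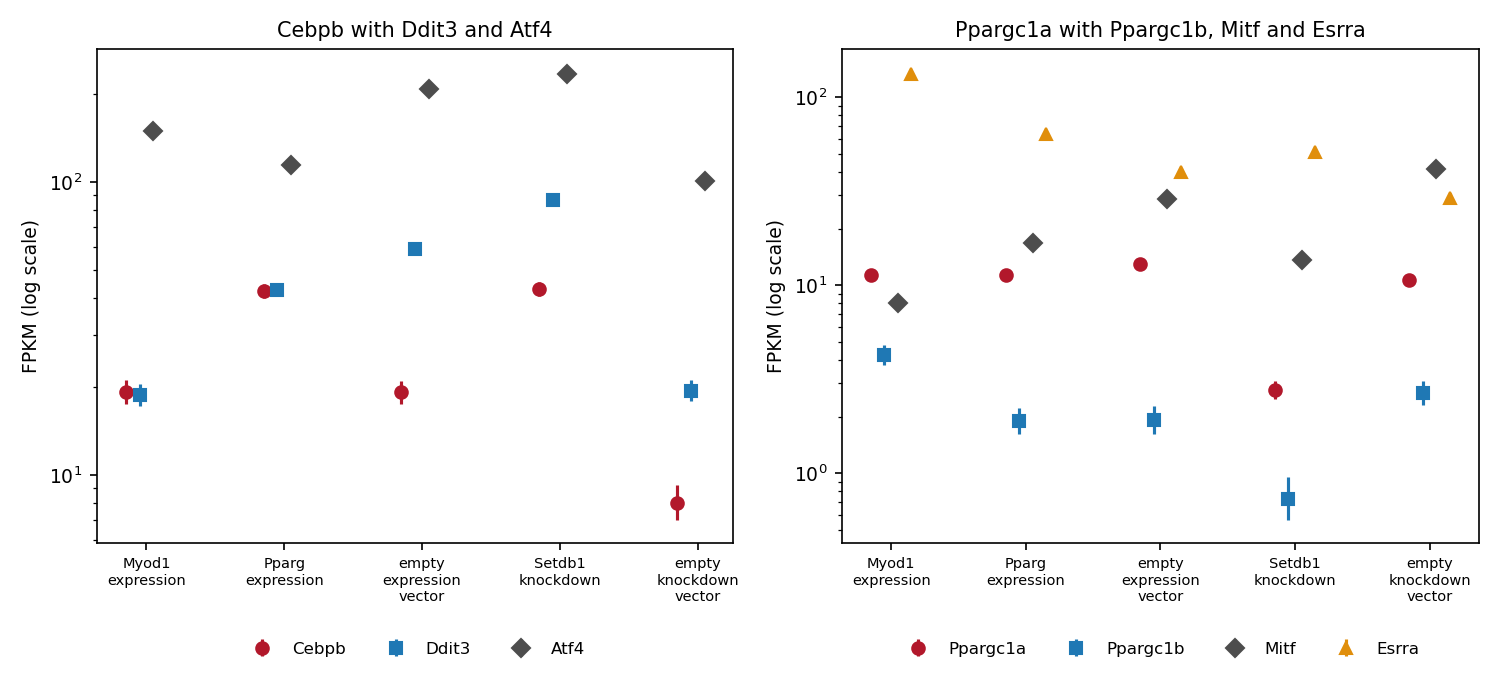
Levels in FPKM on log scales by library, for Cebpb with its relatives Ddit3 and Atf4 (left) and for Ppargc1a with Ppargc1b, Mitf and Esrra (right). Points are single libraries and bars are 95% Wilson intervals. Cebpb, Ddit3 and Atf4 are lowest or nearly lowest in the knockdown control, and Ppargc1a and Ppargc1b are lowest with Setdb1 knockdown.

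The PGC-1 axis list holds relatives, partners and mitochondrial targets of PGC-1 alpha. Of 12 compared, 3 were called lower with Setdb1 knockdown, Mitf, Idh3a and Ppargc1b, and 9 were under the limit, where 10.3% of all genes were lower. The median over all 14 listed was -0.29. Against the other control 2 were called, Mitf and Idh3a, where 11.0% were lower. Mitf was at 13.7 FPKM there against 41.6, a log2 ratio of -1.54, and -1.02 against the other control. Idh3a, a subunit of a citric acid cycle enzyme, had -1.20. With Myod1 expression 5 of the 12 were called higher and 1, Mitf, lower, beside 14.0% and 7.55% of all genes, with a median of 0.82 over all 14. The higher ones included the nuclear receptor partner Esrra at 133 FPKM against 40.0, Sod2 with a log2 ratio of 1.66 and Cycs with 1.43, while Mitf was at 8.03 FPKM against 28.7. Ppargc1a had no call there. With Pparg expression none was called against its own control, and Mitf was at 16.7 FPKM, a log2 ratio of -0.75. Mitf was called lower (-1.27) and Esrra higher (1.10) against the other control, at backgrounds of 2.41% and 5.52%.

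Genes whose pattern over the 5 libraries was nearest to a regulator were taken as the 3 compared protein coding genes with the smallest root mean square difference in centred log2(FPKM + 1), out of 10895 candidates. For Pparg these were Angptl4 (0.52), Cd36 (0.66) and Sncg (0.69). For Ppara they were Mecr (0.047), Cdhr3 (0.049) and Dlst (0.050), and for Rxrg Pstpip2 (0.030), Rbfox1 (0.038) and Myh7 (0.043). For Rxra they were Peak1 (0.032), Dda1 (0.048) and Trmt2b (0.072). Cebpb lay nearest to Txnip (0.18), Mvp (0.19) and Fcgrt (0.25), and Cebpd to Rasl11a (0.21), Thbs1 (0.23) and Irgm2 (0.27). Ppargc1a lay nearest to Mpdz (0.078), Macf1 (0.088) and Rad50 (0.12). Ppard and Rxrb varied by less than 2-fold on this scale and got no such genes. With 5 points per gene, and libraries shared by all, this likeness is a description only.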

How the data were processed

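The authors deposited 1 table of FPKM values for 5 libraries, 1 per group. The submitters' processing notes name CASAVA, HISAT2, featureCounts 1.5.0-p3 and GRCm38, without role or order. How the counting treated strand and shared reads is not given in the sources used here. Multiplied by gene length, 100% of the deposited FPKM values were whole multiples of 1 step per library (tolerance 0.01), which gave reads per gene for intervals, with no count test. The authors' divisor was 0.859 to 1.10 times these reads, so the values were already scaled between libraries. Of 54495 identifiers shared with GENCODE M21, 53585 (98.33%) had the same position, as had 9 of the 10 genes (all but Rxrb).

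Ratios are log2 with a pseudocount of 1, and fold intervals are exact binomial (Clopper-Pearson, 95%, given the summed reads). Folds over 0 reads use a floor of 3 reads. The calculations, checked on simulated data, used Python 3.11.15, numpy 2.4.6, pandas 2.3.3, scipy 1.17.1 and matplotlib 3.10.9. The 10 genes and the lists were chosen with earlier results of these data known, so no list is independent evidence. From the lists, up to 4 called genes per list and comparison with the largest ratios are named, besides the targeted genes, the genes at 0 reads in all libraries, and the nearest patterns. Values of a named gene in comparisons where it was not called were added after they were seen. Alternatives were another pseudocount, filter, limit, scaling, floor and control library, and, chosen after seeing the data, removal of the GC trend over 20 bins. RefSeq windows (GRCm38.p6) were matched by symbol, for 9 of the 10 genes, with none for Cebpd. Protein sequences were not used here.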

Additional observations from a re-analysis of the deposited data

How the results depend on the processing

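No paired analysis was possible because each group had 1 library. A filter on low values or another fold limit cannot move a log2 ratio. Of 266 values of the log2 ratios of single regulators under the other alternatives, 172 were counted as within their counting interval and 94 as beyond it. None of the called ratios changed sign. A gene at 0 reads in both libraries has no such interval, and any shift of it from 0 was counted as beyond. Another pseudocount or a floor also changes the scale of the ratio, so those moves do not measure error. The number of regulators called with Myod1 expression, 2, became 4 against the other control, 1 with scaling to the 75th percentile, where Ppara lost its call (0.94), and 0 with a 4-fold limit or a mean FPKM of at least 1, since Ppara and Rxrg fail that filter. Division by the column sum left it at 2, as Ppara (0.84) lost its call and Ppard (-1.13) gained one. With Setdb1 knockdown the number fell from 3 to 1 with a 4-fold limit, and between the controls from 1 to 0. A pseudocount of 0.1 or a floor of 3 reads added 1 regulator in each treatment comparison, Cebpd with Myod1 expression (1.45 and 1.57, from 2 called to 3) and with Setdb1 knockdown (1.49 and 1.65, from 3 to 4), and Ppara with Pparg expression (1.30 and 1.99, from 3 to 4). With the GC trend removed 2 remained with Pparg expression. Over all genes, a pseudocount of 0.1 raised the calls from 2768 to 4044 with Myod1 expression and from 837 to 1729 with Pparg expression. It raised them from 2526 to 4027 with Setdb1 knockdown and from 343 to 952 between the controls. A floor of 3 reads without pseudocount raised them to 4009, 1617, 4015 and 874 in that order. A 4-fold limit left 608 of 2768 with Myod1 expression, 114, 310 and 36. Division by the column sum moved the median of all genes with Myod1 expression to -0.26 and turned 1798 higher and 970 lower calls into 1237 and 1901, and scaling to the 75th percentile gave 1489 and 1334. Ppara, Rxrg and Cebpa have no value where a mean FPKM of at least 1 is required. With 1 library per group the spread between cultures is unknown, and depth limits what can be said where a gene is on 6 reads or fewer: Ppara in the controls and with Setdb1 knockdown, Rxrg outside the Myod1 expression library, Pparg outside its own and Cebpa in all 5.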
